A study of Mus musculus with 12 samples.

Results

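Aminoacyl-tRNA synthetases are the enzymes that load each amino acid onto its tRNA before protein synthesis, and their genes were followed here in mouse CD4+ T cells that were naive or had been turned into regulatory T (Treg) cells. The members are all genes of the array's probe-to-gene table whose symbol has the form of a synthetase symbol (1 letter for the amino acid, then ars, with an optional 1, 2, a, b, l or l2), together with *Eprs*. This gave 36 of the 19057 genes with a probe, namely 19 cytosolic enzymes or subunits, 16 mitochondrial enzymes (symbols ending in 2) and *Tarsl2*, a cytosolic paralog of the threonyl enzyme. Each gene was read from its brightest probe, and values are log2 intensities after background correction and normalization.

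RNA came from Foxp3GFP mice, which carry a green fluorescent reporter for the Treg transcription factor Foxp3. Treg HAR cells were cultured in low TGF-β with harmine, an alkaloid of plants known to block kinases of the DYRK family, and Treg hi cells in high TGF-β. Both were sorted by fluorescence (FACS) after culture and were set against naive CD4+ T cells, with 4 arrays for each of the 3 treatments. Within each treatment, 2 arrays go back to naive cells isolated by FACS and 2 to naive cells isolated on magnetic beads (MACS). No array holds cells of low TGF-β without harmine, so the drug cannot be told apart from the lower dose of TGF-β in Treg HAR minus Treg hi. Both kinds of Treg cell differ from naive cells in culture, activation and TGF-β at once, and these cannot be told apart either. The labels do not say whether replicates were separate mice or separate cultures, and p-values therefore measure only the spread between these arrays. In both naive groups replicate 2 carried the Y-linked *Eif2s3y* (8.07 and 8.08) and little *Xist* (5.76 and 5.84), and replicate 1 the reverse (*Eif2s3y* 5.96 and 6.07, *Xist* 8.19 and 8.47), so these replicates differ in sex and were not repeats of 1 RNA. The Treg arrays had *Xist* at 8.98 to 10.49 and *Eif2s3y* at 5.67 to 6.99, and whether their spread is technical is not known. The mix of sexes may thus differ between naive and Treg arrays as well. In Treg HAR, *Eif2s3y* exceeded background on both MACS arrays (6.99 and 6.38) and on neither FACS array (5.92 and 5.95). This signal and the purification cannot be told apart there.

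Each cytosolic synthetase serves the ribosomes of the cytoplasm, and a second set of nuclear genes encodes the enzymes imported into mitochondria, where they serve the few proteins translated from mitochondrial DNA. *Gars* and *Kars* encode both forms from 1 gene. The glutamyl-prolyl enzyme *Eprs* and the isoleucyl, leucyl, methionyl, glutaminyl, arginyl and lysyl enzymes (*Iars*, *Lars*, *Mars1*, *Qars*, *Rars* and *Kars*) are known to sit in the multisynthetase complex on the scaffolds *Aimp1*, *Aimp2* and *Eef1e1*. In amino acid shortage and other stress, the kinases that phosphorylate the initiation factor eIF2 raise translation of the transcription factor ATF4, whose known targets in mammalian cells include amino acid synthesis enzymes and several cytosolic synthetases. Activated T cells enlarge and divide, and raise protein synthesis as they do so.

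Promoter sequences are shown for 4 members, picked because motifs known to bind ATF4 or the MYC family occur in them. They are the RefSeq windows of 300 bases, from 250 bases before to 50 after the annotated gene start, on build GRCm38.p6. Capitals mark matches on either strand to TGATGNAA, the core of the C/EBP-ATF response element, or to the E-box CACGTG. The windows of *Aars*, *Gars* and *Iars* hold the first motif, and *Ears2*, the mitochondrial glutamyl enzyme, is shown beside them as the member with the largest negative difference from naive cells.
*Aars* promoter, chr8:111033592-111033891, plus strand: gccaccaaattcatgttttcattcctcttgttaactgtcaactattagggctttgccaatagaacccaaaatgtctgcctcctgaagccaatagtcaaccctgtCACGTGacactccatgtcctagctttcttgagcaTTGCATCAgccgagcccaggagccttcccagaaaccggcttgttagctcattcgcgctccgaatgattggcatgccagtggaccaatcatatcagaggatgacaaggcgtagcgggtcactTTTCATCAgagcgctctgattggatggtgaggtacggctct
*Gars* promoter, chr6:55037751-55038050, plus strand: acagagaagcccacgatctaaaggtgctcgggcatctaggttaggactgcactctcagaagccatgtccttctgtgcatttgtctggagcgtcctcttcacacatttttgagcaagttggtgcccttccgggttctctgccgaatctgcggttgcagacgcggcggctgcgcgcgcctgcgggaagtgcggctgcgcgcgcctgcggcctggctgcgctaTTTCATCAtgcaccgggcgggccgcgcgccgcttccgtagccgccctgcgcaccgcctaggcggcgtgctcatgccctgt
*Iars* promoter, chr13:49681880-49682179, plus strand: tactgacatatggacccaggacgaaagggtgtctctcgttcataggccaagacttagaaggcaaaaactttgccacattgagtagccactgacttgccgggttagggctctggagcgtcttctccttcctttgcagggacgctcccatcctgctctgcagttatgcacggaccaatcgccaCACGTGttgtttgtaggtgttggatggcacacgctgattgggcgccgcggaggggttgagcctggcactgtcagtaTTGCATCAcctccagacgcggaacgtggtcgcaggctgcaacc
*Ears2* promoter, chr7:122067037-122067336, minus strand: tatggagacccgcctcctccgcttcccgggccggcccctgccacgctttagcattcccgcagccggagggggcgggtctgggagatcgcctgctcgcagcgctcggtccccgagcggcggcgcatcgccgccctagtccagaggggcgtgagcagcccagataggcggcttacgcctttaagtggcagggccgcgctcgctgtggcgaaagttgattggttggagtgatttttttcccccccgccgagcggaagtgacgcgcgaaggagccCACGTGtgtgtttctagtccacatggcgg
Of the 36 members, 27 matched a window, and *Cars*, *Hars*, *Hars2*, *Lars*, *Nars*, *Pars2*, *Rars*, *Vars* and *Wars* did not. The TGATGNAA core was found in those of 5 of 12 cytosolic members (*Aars*, *Gars*, *Iars*, *Tars* and *Yars*), in 0 of 14 mitochondrial members and not in *Tarsl2*, against 3.97% of all 32851 windows. Counting from 1 at the 5′ end of the window, it began at positions 139 and 260 in *Aars*, 221 in *Gars* and 258 in *Iars*, in each case as its reverse complement, and it overlapped no E-box there. The E-box was found in 4 of 12 cytosolic members (*Aars*, *Farsb*, *Iars* and *Tars*) and 1 of 14 mitochondrial members (*Ears2*), against 7.15% of all windows. The windows of *Eprs*, *Kars*, *Mars1* and *Qars*, which were called against naive cells below, hold neither motif. *Aars*, which is shown, was called in no treatment comparison. A match is a description of the letters and not a bound site.

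Between 29.9% and 30.2% of the probes on an array exceeded background, and log2 values correlated at 0.980 to 0.992 between replicates and at 0.978 to 0.991 between Treg HAR and Treg hi arrays. The Treg markers *Il2ra*, *Ctla4* and *Tnfrsf18* rose in both kinds of Treg cell against naive cells, but 2 other markers on the list did not pass the test. The *Foxp3* probe averaged 6.98 in Treg HAR, 6.87 in Treg hi and 7.22 in naive cells, although the Treg cells were sorted after culture in a reporter strain for this gene, and how well the probe follows the transcript is not known. *Ikzf2* averaged 6.35 in Treg HAR, 6.19 in Treg hi and 6.30 in naive cells. All 4 measured markers of CD4+ T cells exceeded background on at least 1 array of every treatment. The summed intensity of 6 myeloid markers was 347 to 371 in Treg HAR, 369 to 381 in Treg hi and 2382 to 27240 in naive cells, and 0 of the 6 exceeded background on any Treg array. The sum of 3 B cell markers was 348 to 416 in Treg HAR, 445 to 549 in Treg hi and 1466 to 10113 in naive cells, and that of 4 erythroid and platelet markers 235 to 254 in Treg HAR, 232 to 245 in Treg hi and 917 to 8131 in naive cells. The B cell sum did not overlap between the 2 kinds of Treg cell. Of its 3 genes, 1 was called lower in Treg HAR than in Treg hi cells, where 0.295% of all genes were. *Cd74* averaged 7.81 in Treg HAR, 8.33 in Treg hi and 11.50 in naive cells. The sum of 5 CD8+ T and NK cell markers was 1908 to 2402 in Treg HAR, 1479 to 1777 in Treg hi and 1406 to 2762 in naive cells, with 3 of the 5 above background in each treatment, so that it did not overlap between the 2 kinds of Treg cell. Of its genes, *Nkg7* averaged 8.62 in Treg HAR, 7.55 in Treg hi and 9.18 in naive cells, and *Cd8b1* averaged 10.48 in Treg HAR, 10.25 in Treg hi and 9.49 in naive cells. *Klrd1* averaged 6.23 in Treg HAR, 7.02 in Treg hi and 8.71 in naive cells, and *Cd8a* 5.87 in Treg HAR, 5.79 in Treg hi and 5.88 in naive cells. The part that other cells have in any of the comparisons was not tested. Precision is limited by how few arrays there are.

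Of the 36 members, 35 passed the filter on dim probes, and the mitochondrial tyrosyl gene *Yars2* did not. A further 3 never exceeded background (*Yars*, *Hars2* and *Nars2*), and *Aars2* did so on 2 naive arrays only, which leaves 32 members above background on at least 1 array. The map of levels relative to naive cells shows these 32.

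**Figure D1:**
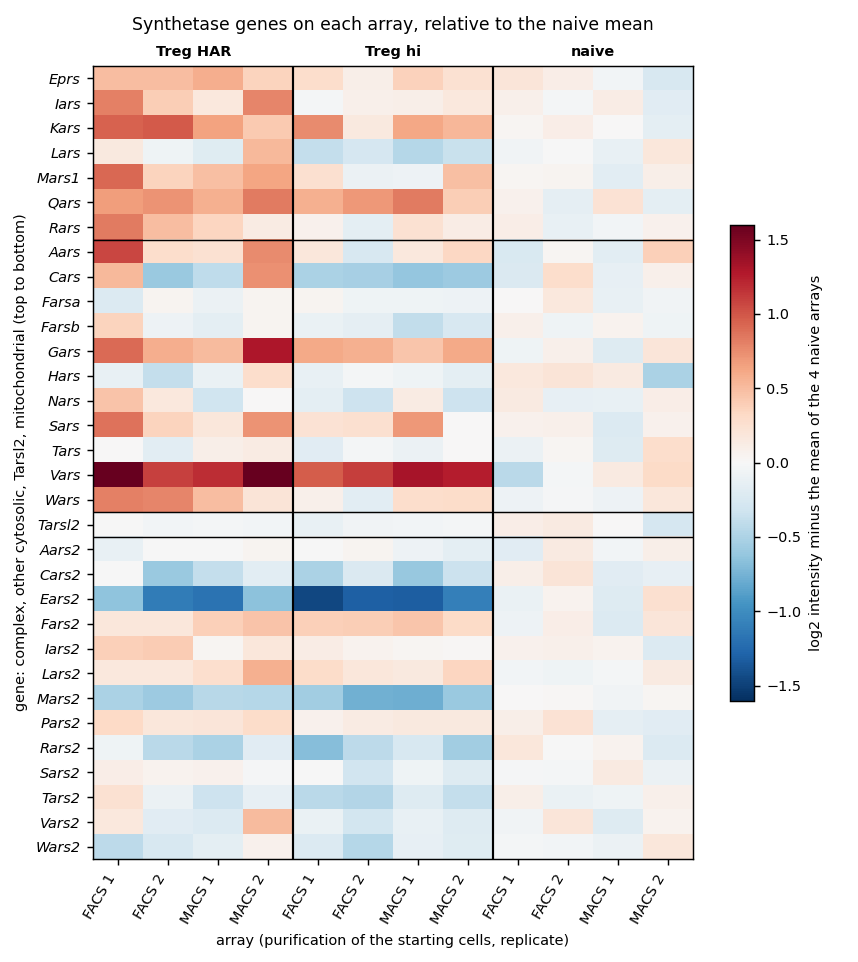
Heat map of 32 synthetase genes (rows) on the 12 arrays (columns, grouped as Treg HAR, Treg hi and naive), coloured by log2 intensity minus the mean of the 4 naive arrays. *Vars* stands highest above the naive level in both kinds of Treg cell and *Ears2* and *Mars2* lowest below it.

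The first comparison asked which synthetase genes differed between induced Treg cells and the naive cells they came from. Among cytosolic members, 9 of 19 rose in Treg HAR cells and 0 fell, and in Treg hi cells 5 rose and 0 fell. Among the 15 mitochondrial members tested, 4 rose and 2 fell in Treg HAR cells, and 1 rose and 5 fell in Treg hi cells. Of all 15582 genes tested, 27.7% changed in Treg HAR (13.9% higher and 13.8% lower) and 26.2% in Treg hi cells (12.9% higher and 13.3% lower). A change is called at an adjusted p under 0.05 by limma, with Benjamini-Hochberg adjustment over all genes tested. The median log2 difference of the cytosolic members from naive was 0.48 in Treg HAR and 0.08 in Treg hi cells, against -0.008 and -0.005 over all genes. With the mean of all probes of a gene the Treg HAR value was 0.23, and with scaling to a common median the Treg hi value was 0.18. That of the mitochondrial members was -0.02 in Treg HAR and -0.15 in Treg hi cells. In Treg HAR minus naive the 4 arrays of each did not overlap for 13 of 35 members, against 26.8% of all genes, and in Treg hi minus naive for 15 of 35, against 26.8% as well. Both comparisons use the same 4 naive arrays, so they are not independent of each other. These are bulk samples, in which fewer cells of a type and less RNA per cell cannot be told apart.

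**Figure D2:**
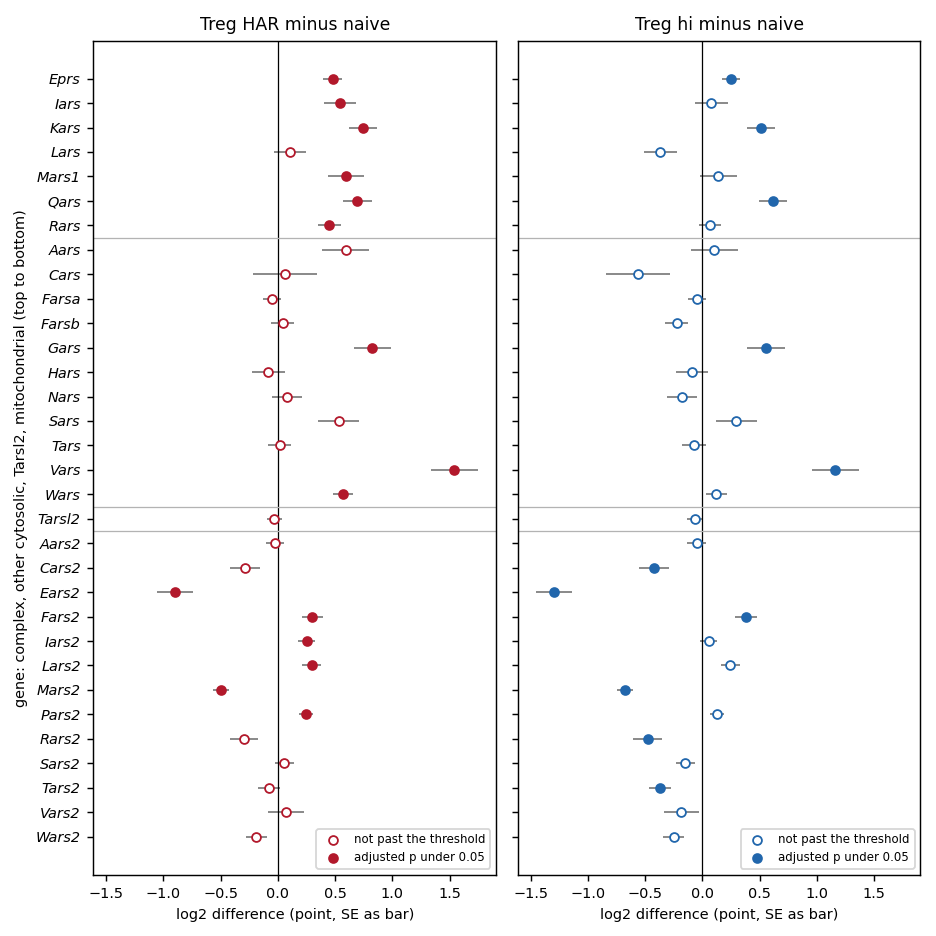
Log2 difference from naive cells (horizontal axis; point, with the moderated SE as a bar) of 32 synthetase genes in Treg HAR cells (left) and Treg hi cells (right), with filled points for adjusted p under 0.05. The largest positive difference is that of *Vars*, at 1.54 in Treg HAR and 1.16 in Treg hi cells, and the largest negative one that of *Ears2*, at -0.90 in Treg HAR and -1.3 in Treg hi cells.

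*Vars*, the cytosolic valyl enzyme, stood furthest above naive cells. Values are listed here and below for FACS replicates 1 and 2 and then MACS replicates 1 and 2. *Vars* read 10.80, 9.93, 10.02 and 10.76 in Treg HAR cells, 9.81, 9.94, 10.16 and 10.09 in Treg hi cells and 8.41, 8.81, 8.98 and 9.15 in naive cells. Every Treg array lay above every naive array, and 2 of the Treg HAR arrays lay above the rest. The log2 difference from naive was 1.54 ± 0.21 in Treg HAR (2.91-fold, adjusted p = 0.000322) and 1.16 ± 0.21 in Treg hi cells (2.24-fold, adjusted p = 0.00203, SE throughout). The other 2 *Vars* probes gave 1.16 and 0.55 for Treg HAR and 0.90 and 0.48 for Treg hi cells.

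*Gars*, the glycyl enzyme, was the next in size in Treg HAR cells. It read 12.35, 12.02, 11.95 and 12.74 in Treg HAR cells, 12.05, 12.01, 11.89 and 12.05 in Treg hi cells and 11.37, 11.52, 11.23 and 11.64 in naive cells, with no overlap of either with naive. Its difference from naive was 0.83 ± 0.17 in Treg HAR (adjusted p = 0.00394) and 0.56 ± 0.17 in Treg hi cells (adjusted p = 0.0322). The second call was lost in 7 of 12 fits that each left out 1 array (each Treg hi array, and each naive array except MACS replicate 2), with an adjusted p of up to 0.106.

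*Kars*, the lysyl enzyme, and *Qars*, the glutaminyl enzyme, rose in both kinds of Treg cell. *Kars* read 9.32, 9.36, 9.02 and 8.79 in Treg HAR cells, 9.14, 8.53, 9.0 and 8.90 in Treg hi cells and 8.41, 8.48, 8.39 and 8.23 in naive cells. Its difference was 0.74 ± 0.12 (adjusted p = 0.00113) in Treg HAR and 0.52 ± 0.12 (adjusted p = 0.0103) in Treg hi cells. The other *Kars* probe, above background on 11 arrays, gave 0.36 in Treg HAR and 0.30 in Treg hi cells. *Qars* read 10.93, 10.98, 10.83 and 11.10 in Treg HAR cells, 10.83, 10.95, 11.09 and 10.65 in Treg hi cells and 10.33, 10.13, 10.50 and 10.10 in naive cells. Again no Treg array fell among the naive ones, for either gene. The difference of *Qars* was 0.70 ± 0.12 (adjusted p = 0.00188) in Treg HAR and 0.62 ± 0.12 (adjusted p = 0.00407) in Treg hi cells, and its other 2 probes above background gave between 0.48 and 0.58.

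The remaining cytosolic genes called in Treg HAR cells were *Mars1* (0.59), *Wars* (0.57), *Iars* (0.54), *Eprs* (0.48) and *Rars* (0.45), all log2 differences from naive. Of these, *Eprs* was also called in Treg hi cells, at 0.25 ± 0.08 (adjusted p = 0.0487), a call that held in 4 of the 12 fits without 1 array (Treg HAR MACS replicate 1 or 2, Treg hi FACS replicate 2 or naive MACS replicate 1 left out). In Treg HAR minus naive the call of *Iars* was lost without Treg HAR FACS replicate 1, naive FACS replicate 2 or naive MACS replicate 2, and that of *Mars1* without Treg HAR FACS replicate 1 or MACS replicate 2 or any naive array except MACS replicate 2. The probes of *Eprs* disagreed: the other 2 gave -0.25 and 0.15 for Treg HAR and -0.24 and 0.20 for Treg hi cells. For the other 4 genes, other probes above background gave smaller differences in Treg HAR cells. They were 0.275 for *Mars1*, 0.277 for *Iars*, 0.276 for *Rars* and 0.21, 0.29 and 0.28 for *Wars*. The serine and alanine enzymes *Sars* (0.53, adjusted p = 0.0531) and *Aars* (0.59, adjusted p = 0.0592) missed the threshold in Treg HAR cells. Another *Sars* probe, above background on 11 arrays, gave -0.07, and another *Aars* probe, above it on 2 arrays, gave 0.11. Of the 7 members of the complex, 6 rose in Treg HAR cells, all but *Lars*, with a median difference of 0.54 over the 7. Of the 12 other cytosolic members 3 rose, with a median of 0.07. In Treg hi cells 3 of the 7 rose, with a median of 0.14, and 2 of the other 12, with a median of -0.001. Among the 12 others, *Yars* never exceeded background, and *Farsa*, *Hars* and *Tars* averaged below all 7 members of the complex in every treatment. The processing shrinks differences of such dim genes. The 2 catalytic classes of synthetases, with *Eprs* in neither count, gave a like contrast in Treg HAR cells. In class I 6 of 9 rose, with a median of 0.54, and in class II 2 of 9, with a median of 0.08. The complex and class I share members. Whether the complex differs from the other members, apart from brightness and class, was not tested.

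The mitochondrial set moved in both directions. *Ears2* read 7.57, 7.10, 7.04 and 7.57 in Treg HAR cells, 6.76, 6.90, 6.89 and 7.12 in Treg hi cells and 8.10, 8.28, 8.01 and 8.48 in naive cells. All 8 Treg arrays lay below all 4 naive arrays. It fell by 0.90 ± 0.16 in Treg HAR (adjusted p = 0.00169) and fell by 1.3 ± 0.16 in Treg hi cells (adjusted p = 0.000179), to 0.537 and 0.407 of the naive level.

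*Mars2*, the mitochondrial methionyl enzyme, read 7.19, 7.11, 7.25 and 7.23 in Treg HAR cells, 7.13, 6.92, 6.91 and 7.09 in Treg hi cells and 7.70, 7.71, 7.63 and 7.72 in naive cells. All 8 Treg arrays again lay below all 4 naive arrays. It fell by 0.50 ± 0.07 in Treg HAR (adjusted p = 0.00047) and fell by 0.68 ± 0.07 in Treg hi cells (adjusted p = 6.7e-05). Its other probe gave -0.37 in Treg HAR and -0.53 in Treg hi cells. In Treg hi cells *Rars2* (-0.48), *Cars2* (-0.42) and *Tars2* (-0.37), for arginine, cysteine and threonine, also fell. Other probes above background on all 12 arrays gave smaller falls there, of -0.21 and -0.11 for *Rars2* and -0.18 for *Cars2*. In Treg HAR cells *Rars2* (-0.30, adjusted p = 0.118), *Cars2* (-0.29, adjusted p = 0.154) and *Tars2* (-0.08, adjusted p = 0.655) did not pass the test. In Treg hi minus naive the calls of *Rars2* and *Tars2* were each lost in 4 of 12 fits without 1 array, and that of *Cars2* in 6, for all 3 among them the fit without naive FACS replicate 1.

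The mitochondrial genes that rose had smaller differences. In Treg HAR cells they were *Lars2* (0.30), *Fars2* (0.30), *Iars2* (0.25) and *Pars2* (0.25), for leucine, phenylalanine, isoleucine and proline, and in Treg hi cells *Fars2* alone (0.38 ± 0.09, adjusted p = 0.0121). The other *Iars2* probe, above background on all 12 arrays, gave 0.08 in Treg HAR minus naive. The other *Pars2* probes gave 0.07 and 0.31 there, and those of *Lars2* did not exceed background. All 4 calls in Treg HAR cells were lost without Treg HAR FACS replicate 1 and again without naive FACS replicate 1, and that of *Fars2* in Treg hi cells without naive FACS replicate 1 (adjusted p = 0.0531). Over all 12 such fits *Pars2* was called in 10, *Iars2* and *Lars2* in 6 and *Fars2* in 4 for Treg HAR minus naive. The fall of *Ears2* and *Mars2* passed in every one of the 12 fits without 1 array, as did the rise of *Eprs*, *Gars*, *Kars*, *Qars*, *Rars*, *Vars* and *Wars* in Treg HAR cells and of *Kars*, *Qars* and *Vars* in Treg hi cells.

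Cytosolic and mitochondrial enzymes for the same amino acid could be set side by side in 14 pairs. In the plot of paired differences, the cytosolic partner was the more positive one in 11 of 14 pairs in Treg HAR minus naive, with a median gap of 0.41, and in 10 of 14 in Treg hi minus naive, with a median gap of 0.22. For glutamate, *Eprs* was at 0.48 and *Ears2* at -0.90 in Treg HAR cells, and at 0.25 and -1.3 in Treg hi cells. For methionine, *Mars1* was at 0.59 and *Mars2* at -0.50 in Treg HAR cells, and *Mars1* was at 0.14 (adjusted p = 0.629) and *Mars2* at -0.68 in Treg hi cells. For valine, *Vars* was at 1.54 and *Vars2* at 0.07 (adjusted p = 0.824) in Treg HAR cells, and in Treg hi cells they were at 1.16 and -0.18 (adjusted p = 0.493). Leucine ran the other way in Treg hi cells, with *Lars* at -0.37 (adjusted p = 0.0948) and *Lars2* at 0.24 (adjusted p = 0.0583). *Eprs* and *Fars2* each enter 2 pairs, and the gaps were not tested.

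**Figure D3:**
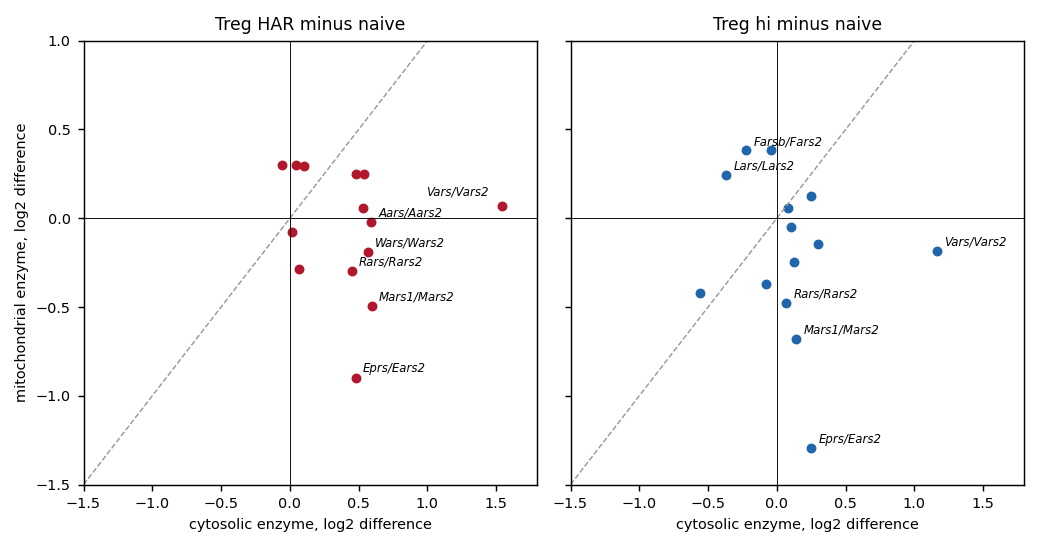
Log2 difference from naive cells of the mitochondrial enzyme (vertical axis) against that of the cytosolic enzyme for the same amino acid (horizontal axis), for 14 pairs above background, in Treg HAR (left) and Treg hi cells (right). Points under the dashed line of equality, 11 of 14 on the left and 10 of 14 on the right, have the more positive difference in the cytosolic enzyme, and pairs more than 0.5 apart are named.

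The second comparison asked whether synthetase genes differed between the 2 kinds of Treg cell. By limma 0 of the 35 members passed the threshold, where 0.468% of all genes did. At an unadjusted p under 0.05 there were 13 members, all higher in Treg HAR, and 1682 of all 15582 genes. The cytosolic members were higher in Treg HAR cells in 18 of 19 cases with a median log2 difference of 0.27, *Farsa* at -0.01 being the exception, and the mitochondrial members in 12 of 15 with a median of 0.14, against -0.001 over all genes. With the mean of all probes of a gene the cytosolic median was 0.18 and the mitochondrial one 0.05. Within the complex all 7 were higher, with a median of 0.38. For 3 members (*Lars*, *Iars* and *Pars2*) the 4 Treg HAR arrays lay wholly above the 4 Treg hi arrays, and for 0 wholly below. Of all genes, 6.6% did not overlap between the groups, 3.41% with Treg HAR higher and 3.18% with Treg HAR lower.

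**Figure D4:**
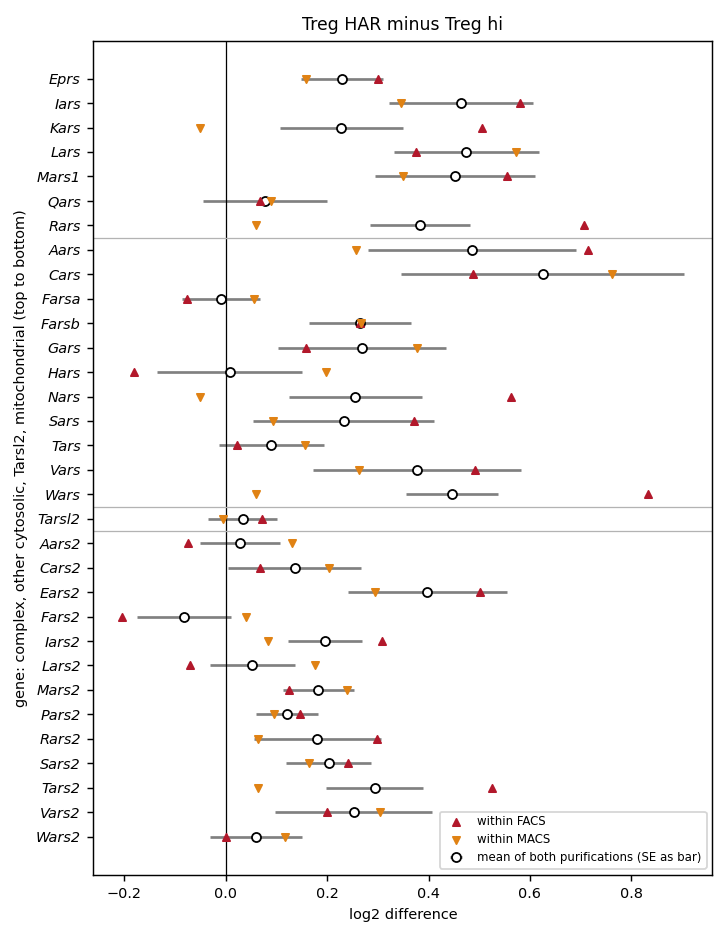
Log2 difference of Treg HAR minus Treg hi cells (horizontal axis) for 32 synthetase genes, with open circles for the mean of both purifications, bars for its SE, and triangles for the difference within FACS (red) and within MACS (orange). Most circles lie right of 0, and *Wars* and *Rars* have a wide gap between purifications (0.83 and 0.06, 0.71 and 0.06).

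*Wars*, the tryptophanyl enzyme, which interferon-γ induces in human cells, had the smallest p among the members. It read 9.04, 9.01, 8.73 and 8.44 in Treg HAR cells and 8.32, 8.07, 8.51 and 8.53 in Treg hi cells. The FACS arrays of Treg HAR stood apart from those of Treg hi, whereas the MACS arrays overlapped. The difference was 0.45 ± 0.09 (adjusted p = 0.0824), made up of 0.83 within FACS and 0.06 within MACS. The other 3 *Wars* probes gave -0.03, 0.26 and 0.03.

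*Rars*, the arginyl enzyme, read 8.97, 8.65, 8.50 and 8.27 in Treg HAR cells and 8.21, 8.0, 8.39 and 8.27 in Treg hi cells. It had the same split by purification, with 0.71 within FACS and 0.06 within MACS (mean 0.38 ± 0.10, adjusted p = 0.150), and the other *Rars* probe gave 0.07. *Tars2* read 7.91, 7.57, 7.34 and 7.53 in Treg HAR cells and 7.24, 7.19, 7.46 and 7.28 in Treg hi cells, at 0.52 within FACS and 0.06 within MACS (mean 0.29 ± 0.10, adjusted p = 0.259). The interaction of this difference with the purification passed the threshold for 0 of 35 members and for 0% of all genes by limma. At an unadjusted p under 0.05 it did so for 5 members (*Wars*, *Rars*, *Tars2*, *Nars* and *Kars*) and 768 genes.

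*Lars*, the leucyl enzyme, read 10.26, 10.03, 9.90 and 10.62 in Treg HAR cells, 9.72, 9.82, 9.64 and 9.74 in Treg hi cells and 10.05, 10.10, 9.98 and 10.28 in naive cells. Treg HAR cells were thus near the naive level for this gene and Treg hi cells below it. Its difference was 0.47 ± 0.14 (adjusted p = 0.224), and its other probe gave 0.36. *Iars*, the isoleucyl enzyme, read 9.25, 8.83, 8.61 and 9.22 in Treg HAR cells and 8.41, 8.52, 8.53 and 8.61 in Treg hi cells. Its lowest Treg HAR array only just cleared the highest Treg hi array, and its difference was 0.46 ± 0.14 (adjusted p = 0.229), with 0.22 from its other probe above background. The difference had the same sign in both purifications for both genes, with 0.38 and 0.57 for *Lars* and 0.58 and 0.35 for *Iars*. The largest difference of any member in this comparison was that of the cysteinyl enzyme *Cars*, at 0.62 ± 0.28 (adjusted p = 0.465), which rested on 2 arrays.

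The 4 Treg HAR arrays were unequal. *Cars* read 7.69, 6.58, 6.76 and 7.91 in Treg HAR cells, 6.67, 6.64, 6.56 and 6.59 in Treg hi cells and 6.95, 7.46, 7.04 and 7.25 in naive cells. FACS replicate 1 and MACS replicate 2 of Treg HAR were high, and the other 2 lay near the Treg hi values. These same 2 arrays stood above the other 2 for 9 of 19 cytosolic members (*Aars*, *Cars*, *Farsb*, *Gars*, *Iars*, *Lars*, *Mars1*, *Sars* and *Vars*) and 5 of 15 mitochondrial members (*Cars2*, *Ears2*, *Pars2*, *Rars2* and *Vars2*), and below them for 0 of either. Of all genes tested, 23.6% had these 2 arrays above the others and 19.9% below. The 2 arrays were singled out after their values were seen, so these shares are a description.

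**Figure D5:**
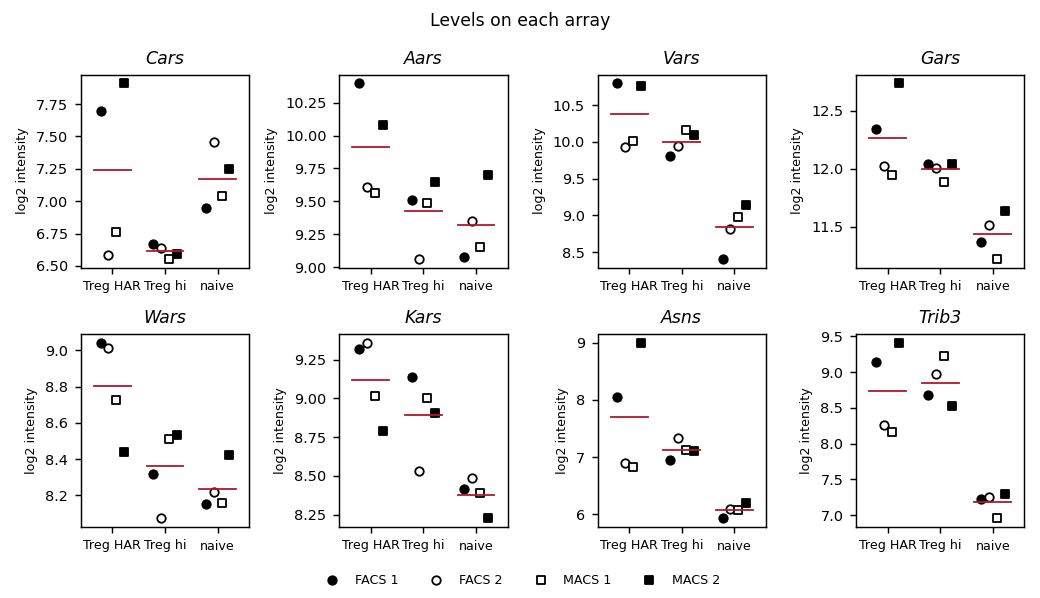
Log2 intensity (vertical axis, own scale in each panel) of 6 synthetase genes and of *Asns* and *Trib3* on each array, by treatment, with circles for FACS, squares for MACS, filled symbols for FACS replicate 1 and MACS replicate 2, open symbols for the other replicates, and red lines for means of 4 arrays. In Treg HAR cells the filled symbols stand above the open ones for *Cars*, *Aars*, *Vars*, *Gars*, *Asns* and *Trib3* and not for *Wars* and *Kars*.

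The gap between the 2 pairs of Treg HAR arrays was 1.13 for *Cars*, 0.80 for *Vars*, 0.65 for *Aars*, 0.55 for *Gars* and 0.51 for *Iars*, and it was -0.13 for both *Kars* and *Wars*. *Aars*, *Gars* and *Iars* are the members whose promoters are printed above with the TGATGNAA core. Among cytosolic members with a window, the core was present in 3 of 6 with a gap on both arrays and in 2 of 6 without (*Tars* and *Yars*). Those 2 were at or near background, *Tars* exceeding it on 7 arrays and *Yars* on 0. *Farsb*, *Mars1* and *Sars*, above background on all 12 arrays, had the gap (0.32, 0.36 and 0.52) and a window without the core. *Cars*, *Lars* and *Vars*, which had the gap, have no window. Whether the core and the gap are linked was not tested. The mean over the 19 cytosolic members was 8.91, 8.60, 8.53 and 8.83 on the Treg HAR arrays, 8.44, 8.36, 8.48 and 8.46 on the Treg hi arrays and 8.29, 8.34, 8.25 and 8.35 on the naive arrays. The median SD within Treg HAR was 0.28 for cytosolic and 0.18 for mitochondrial members, against 0.11 for all genes, while within Treg hi it was 0.16 and 0.11, against 0.10. The sets are unlike in intensity, since 10149 of the 15582 genes exceeded background on at least 1 array, against 32 of 35 members. The processing shrinks differences of dim genes.

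Without these 2 arrays, 7 of the 9 cytosolic calls in Treg HAR minus naive remained (*Eprs*, *Gars*, *Kars*, *Qars*, *Rars*, *Vars* and *Wars*) with a median difference of 0.27 in place of 0.48. *Iars* and *Mars1* were lost, *Cars* was called lower, the 4 mitochondrial rises were lost, and *Cars2* and *Rars2* joined *Ears2* and *Mars2* among those that fell. This fit rests on fewer arrays, and over all genes it also called fewer than the main fit against naive and against Treg hi cells. In Treg HAR minus Treg hi the cytosolic median was then 0.10, with 14 of 19 members higher, and the mitochondrial median 0.05. *Wars* (0.51) and *Rars* (0.36) were still above Treg hi cells, while *Lars* was at 0.24 and *Iars* at 0.21, and the number of calls was again 0.

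The same 2 arrays were also the highest of the Treg HAR group for 19 of 27 measured genes of the integrated stress response, the pathway through eIF2 and ATF4, and the lowest for 4. Of all genes tested, they were the highest for 23.6% and the lowest for 19.9%. Of the 27 genes, 24 exceeded background on at least 1 array. *Atf3*, counted among the 19, read 5.985, 5.925, 5.973 and 6.027 in Treg HAR cells, all at background. *Asns*, the asparagine synthetase, read 8.04, 6.90, 6.83 and 9.0 in Treg HAR cells, 6.94, 7.33, 7.12 and 7.11 in Treg hi cells and 5.93, 6.09, 6.07 and 6.19 in naive cells. *Trib3*, a pseudokinase induced by ATF4, read 9.13, 8.27, 8.16 and 9.41 in Treg HAR cells, 8.67, 8.98, 9.23 and 8.53 in Treg hi cells and 7.23, 7.25, 6.96 and 7.29 in naive cells. *Chac1*, which degrades glutathione, read 7.0, 6.14, 6.06 and 7.24 in Treg HAR cells, 6.20, 6.23, 6.37 and 6.34 in Treg hi cells and 5.82, 6.13, 6.09 and 6.56 in naive cells. For each of these 3 genes, which were chosen after their values were seen, FACS replicate 1 and MACS replicate 2 stood above the other Treg HAR arrays, as they did for *Cars*. Both also lay above every Treg hi array for *Asns* and *Chac1* but not for *Trib3*. The part that this response has in the synthetase values was not tested.

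As a whole, the integrated stress response genes moved both ways against naive cells. In Treg HAR cells 12 of 27 rose and 4 fell, and in Treg hi cells 8 rose and 4 fell, against 27.7% of all genes in Treg HAR and 26.2% in Treg hi cells, while between the 2 kinds of Treg cell 0 changed by limma, with 3 at an unadjusted p under 0.05. The genes with the largest rise in Treg HAR cells were *Eif4ebp1*, an inhibitor of cap-dependent translation, at 1.8 ± 0.19, *Psat1* of serine synthesis at 1.71 ± 0.14 and *Nupr1*, a stress-induced chromatin protein, at 1.71 ± 0.21. In Treg hi cells *Eif4ebp1* was at 1.76, *Psat1* at 1.48 and *Nupr1* at 2.40. *Ppp1r15a*, which encodes a subunit that dephosphorylates eIF2 and is also an early response gene, read 7.83, 6.92, 6.83 and 7.75 in Treg HAR cells, 7.19, 7.65, 8.03 and 7.42 in Treg hi cells and 12.04, 12.12, 12.09 and 12.67 in naive cells. It fell by 4.90 ± 0.27 in Treg HAR (adjusted p = 9.63e-07) and fell by 4.66 ± 0.27 in Treg hi cells (adjusted p = 1.48e-06). The transcript of *Atf4* itself, chosen after its values were seen, also fell, at -1.46 in Treg HAR (adjusted p = 0.00154) and -1.62 in Treg hi cells (adjusted p = 0.000905). *Asns* was at least 2.77-fold higher in Treg HAR than in naive cells, where it did not exceed background.

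Partners of the synthetases were read beside them, against 27.7% of all genes called in Treg HAR and 26.2% in Treg hi minus naive. Of 8 scaffolds and elongation factors that associate with them, 1 rose (*Aimp2*, 0.33) and 1 fell (*Eef1b2*, -0.43) in Treg HAR cells, 2 rose in Treg hi cells (*Aimp1*, 0.50, and *Eef2*, 0.55), and 0 changed between the 2 kinds of Treg cell, with 2 at an unadjusted p under 0.05. The complex subunit *Aimp2* read 8.55, 8.41, 8.32 and 8.11 in Treg HAR cells, 8.04, 8.17, 8.07 and 8.49 in Treg hi cells and 8.02, 8.10, 8.07 and 7.88 in naive cells. The groups did not overlap between Treg HAR and naive cells for this gene, and 2 Treg hi arrays (FACS replicate 2 and MACS replicate 2) lay above the lowest Treg HAR array.

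Among 12 measured genes of editing and of indirect charging, 2 rose and 3 fell against naive cells in each kind of Treg cell, where 27.7% of all genes changed in Treg HAR and 26.2% in Treg hi cells, and 0 changed between the kinds, with 1 at an unadjusted p under 0.05. Mitochondria make glutaminyl-tRNA indirectly, by way of *Ears2* and an amidotransferase of the subunits *Qrsl1*, *Gatb* and *Gatc*. *Qrsl1*, its catalytic subunit, fell by 0.70 ± 0.08 in Treg HAR (adjusted p = 0.000162) and fell by 0.81 ± 0.08 in Treg hi cells (adjusted p = 6.95e-05), whereas *Gatc* rose by 0.62 ± 0.07 in Treg HAR (adjusted p = 0.000123) and by 0.69 ± 0.07 in Treg hi cells (adjusted p = 6.83e-05). *Gatb* read 6.79, 6.51, 6.42 and 6.67 in Treg HAR cells, 6.37, 6.27, 6.68 and 6.36 in Treg hi cells and 6.57, 6.40, 6.52 and 6.5 in naive cells, with overlap among all 3 groups. *Aarsd1*, which resembles the editing domain of the alanyl enzyme, rose by 0.74 in Treg HAR and by 0.46 in Treg hi cells, and *Dtd1*, which removes D-amino acids from tRNA, was at -0.40 in Treg HAR and -0.45 in Treg hi cells, and *Prorsd1*, named for a prolyl-tRNA synthetase associated domain, was at -0.42 in Treg HAR and -0.34 in Treg hi cells, all past the threshold. Of 9 mitochondrial translation factors, 3 rose in Treg HAR cells, namely the initiation factor *Mtif2* (0.81), the elongation factor *Tufm* (0.59) and its exchange factor *Tsfm* (0.42), and the initiation factor *Mtif3* fell (-0.28). In Treg hi cells *Mtif2* rose (0.59), and between the 2 kinds of Treg cell 0 of the 9 changed, with 2 at an unadjusted p under 0.05.

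The purification of the starting cells was a further comparison. In naive cells, FACS and MACS arrays differed for 0 of 35 members, where 1.39% of all genes differed (0.0385% higher and 1.35% lower in FACS), and at an unadjusted p under 0.05 for 3 members (*Pars2*, *Tarsl2* and *Eprs*) and 1536 genes. *Pars2* read 6.61 and 6.74 on the naive FACS arrays and 6.37 and 6.33 on the naive MACS arrays (adjusted p = 0.155). In Treg HAR and in Treg hi cells 0 members and 0% of genes differed between purifications. At an unadjusted p under 0.05 there were 7 members and 578 of all 15582 genes in Treg HAR cells. In Treg hi cells there were 1 member and 384 genes. Within FACS alone the median cytosolic difference from naive was 0.54 in Treg HAR and 0.01 in Treg hi cells, and within MACS alone it was 0.29 and 0.16. *Vars*, *Ears2* and *Mars2* were called within each purification in Treg hi minus naive, with *Ears2* at -1.36 within FACS and -1.24 within MACS and *Mars2* at -0.68 in both. These 3 genes, *Eprs* and *Kars* were called within each purification in Treg HAR minus naive.

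Besides *Aars*, *Cars*, *Lars* and *Sars* above and *Yars*, which stayed at background, 12 members passed the test in no treatment comparison. *Farsb*, *Farsa*, *Hars*, *Nars*, *Tars* and *Tarsl2* were called in 0 of the 3 treatment comparisons, as were the mitochondrial *Aars2*, *Hars2*, *Nars2*, *Sars2*, *Vars2* and *Wars2*. Among these 12, *Wars2* had the smallest adjusted p, at -0.25 ± 0.09 in Treg hi minus naive (adjusted p = 0.0739). *Hars* had 1 naive array well below the others (6.18 on MACS replicate 2, against 6.84 to 6.90).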

How the data were processed

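RNA of 12 samples was hybridized to Illumina Mouse WG-6 v2 BeadChips. The deposited intensities had been collected in GenomeStudio by the authors and share 1 mean on all arrays, with no background subtracted and no detection p-values or control probes. The authors also deposited log2 values, made with lumi (background correction, variance stabilization and robust spline normalization), which served as an alternative only. In R 4.3.3 with limma 3.58.1, intensities were background-corrected (normexp, saddle, offset 50), quantile-normalized and taken to log2. The offset shrinks differences of dim genes. Of 45281 probes, 34885 had 1 gene, 18 several and 10378 none in the platform annotation. Probes above the array's median on at least 2 arrays were kept (32081), and the probe with the highest mean stood for its gene, which gave 15582 genes. Background is the mode of an array's log2 values plus 3 SD of the values below it.

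A mean was fitted with limma for each of 6 groups (treatment by purification). Each treatment difference averages those within FACS and within MACS, p-values are two-sided, and genes were called at a Benjamini-Hochberg adjusted p under 0.05. Errors of differences are moderated SE. Values on every array are given, per comparison, for the 5 called members with the largest difference and 1 sign in both purifications, or the 5 with the smallest p, and for others chosen after their values were seen. Of the other lists, up to 4 called genes by size are named. Members and lists were chosen with earlier results of these data known. The code was tested on simulated data. Alternatives were other background corrections, scalings, filters and probe rules, blocks by replicate number and by Y-linked signal, single purifications and leaving out each array. Protein sequences were not used here.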

Additional observations from a re-analysis of the deposited data

Results flagged for a closer look

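In 5 of 105 sets of 4 arrays (1 member in 1 treatment, 4.76%), 1 array stood away from the other 3 by Dixon's criterion, and chance alone gives about 1 in 20. *Farsa*, a subunit of the cytosolic phenylalanyl enzyme, read 6.699 on FACS replicate 1 of Treg hi and 6.572 to 6.588 on the others. The histidyl gene *Hars* read 6.182 on naive MACS replicate 2 and 6.839 to 6.896 on the other naive arrays. The same array read 8.604 for *Iars2*, against 8.886 to 8.91, and 7.107 for *Lars2*, against 6.9 to 6.935. *Sars* read 8.719 on naive MACS replicate 1, against 9.007 to 9.018 on the others.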

How the results depend on the processing

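No count of members in Treg HAR minus Treg hi, in naive FACS minus MACS or in the interaction left 0 under any alternative run for it. Fits on part of the arrays also called fewer of all genes. In Treg HAR minus naive these numbered 4313, but 3519 within FACS, 2184 within MACS and 2918 on arrays without *Eif2s3y*. In Treg hi minus naive they numbered 4081, but 3218, 1959 and 2586 in the same settings. Cytosolic genes higher in Treg HAR than naive numbered 9, 8 with the mean of all probes (*Eprs* lost) and 3 within MACS (*Eprs*, *Kars* and *Vars*), and cytosolic genes lower 0, but 1 (*Hars*) within FACS and on arrays without the Y-linked *Eif2s3y* and 1 (*Cars*) without FACS replicate 1 and MACS replicate 2 of Treg HAR. Mitochondrial genes higher in Treg HAR than naive numbered 4, but 2 with the mean of all probes, 1 within FACS, 1 within MACS, 2 on arrays without *Eif2s3y* and 0 without those 2 Treg HAR arrays, where 4 in place of 2 were lower. Cytosolic genes higher in Treg hi than naive numbered 5, but 3 with the mean of all probes (*Eprs* and *Gars* lost), 3 within FACS (*Eprs* and *Kars* lost) and 2 within MACS (*Kars* and *Vars*), while cytosolic genes lower were 1 (*Lars*) with the mean of all probes and 2 (*Cars* and *Lars*) without the 2 Treg HAR arrays, against 0. Mitochondrial genes higher in Treg hi than naive numbered 1, but 2 with scaling to a common median, the authors' log2 table, the mean of all probes or without the 2 Treg HAR arrays, and 0 within MACS, and those lower numbered 5, but 3 within FACS, 2 within MACS and 2 on arrays without *Eif2s3y*. Leaving out 1 array at a time gave 7 to 11 cytosolic genes higher and 0 lower, and 0 to 4 mitochondrial genes higher and 2 to 3 lower, in Treg HAR minus naive. In Treg hi minus naive it gave 3 to 5 cytosolic genes higher and 0 to 1 lower, and 0 to 2 mitochondrial genes higher and 2 to 5 lower. The mitochondrial genes higher in Treg HAR numbered 0 without Treg HAR FACS 1 or naive FACS 1, 1 without Treg HAR FACS 2 or MACS 2 and 2 without naive FACS 2 or MACS 1. In Treg hi minus naive, 3 cytosolic genes were higher without Treg hi FACS 1, MACS 1 or MACS 2 or naive FACS 1 or 2, and 1 (*Lars*) lower without Treg HAR MACS 1 or 2. Mitochondrial genes higher there were 0 without naive FACS 1 and 2 (*Fars2* and *Lars2*) without Treg HAR MACS 1 or 2 or Treg hi MACS 1, and those lower were 2 without naive FACS 1 and 3 without Treg hi FACS 1 or MACS 2 or naive MACS 2. Pairing by replicate number did not hold throughout: over 15 pairs of groups the correlation of deviations was -0.672 to 0.464 and over 0.1 in 7, among them the 3 pairs of naive FACS, naive MACS and Treg hi MACS (0.281 to 0.464). *Eif2s3y* exceeded background on replicate 2 and not on replicate 1 in the naive and Treg hi groups, but not in the Treg HAR groups. With the replicate number as a block the counts were 9 and 0 cytosolic and 4 and 2 mitochondrial genes higher and lower in Treg HAR minus naive, 5 and 0 and 1 and 4 in Treg hi minus naive, and 0 in Treg HAR minus Treg hi. Among single genes in Treg hi minus naive, *Gars* was at 0.26 with the mean of all probes and 0.53 within MACS, and *Qars* at 0.57 within MACS, none of them called. In Treg HAR minus naive, *Gars* (0.91) and *Qars* (0.66) were not called within MACS. All genes called in Treg HAR minus Treg hi numbered 73, but 40 with the replicate block, 35 with the mean of all probes, 21 within FACS, 0 within MACS, 118 with treatment alone in the model and 12 to 142 without 1 array. The settings without the 2 Treg HAR arrays and on arrays without *Eif2s3y* were chosen after seeing the data, and the causes of these changes were not tested. Signal near background limits what *Yars*, *Hars2*, *Nars2*, *Aars2* and *Yars2* can show.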
